A study of Mus musculus with 14 samples.

Results

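The 10 blood vessel and liver sinusoid marker genes described here, across mouse organoids and the tissues they came from, are Pecam1, Cdh5, Emcn, Eng, Kdr, Flt1, Tek, Stab2, Lyve1 and Clec4g, 10 of the 19938 genes that the arrays measured with a probe set of their own. They were named as a list of markers, not picked by a fold change, though with earlier results of these data known. Each is represented by its probe set with the highest mean signal. RNA of C57BL/6 mice was hybridised to Affymetrix gene arrays, 2 arrays for each of 7 groups, which makes 14 arrays. The 3 tissue groups are whole gallbladder, liver and intestine (small intestine in the series text). The organoid groups, epithelial cultures in Matrigel, are gallbladder, liver and intestine organoids and differentiated gallbladder organoids. Per the labels, organoid medium was AdDMEM/F12 with B27, N2, N-acetylcysteine, EGF, FGF10, HGF, nicotinamide and conditioned media holding R-spondin 1 and noggin. For the differentiated gallbladder organoids, nicotinamide, noggin and R-spondin 1 were left out for 2 weeks. Age, sex and number of animals were not used here. Nothing in the labels says whether the 2 arrays of a group came from separate animals or cultures. All p-values therefore rest on array-to-array spread that may be technical. No VEGF or angiopoietin is named in the medium.

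Endothelial cells line blood vessels. They are held together by the adhesion molecules Pecam1 and Cdh5 (VE-cadherin) and read growth signals through the VEGF receptors Kdr and Flt1 and the angiopoietin receptor Tek (Tie2). In the liver the capillaries are sinusoids, whose endothelium has open pores and scavenges hyaluronan and other molecules from blood through receptors such as Stab2, Lyve1 and the lectin Clec4g. Lyve1 also marks lymphatic vessels and some tissue macrophages.

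The deposited values are log2 signals. Array medians lay between 7.12 and 7.44; no detection call was used. With 2 arrays a group, precision is limited. The spread between the 2 arrays of a group was wider in tissue (pooled SD 0.289 to 0.404 log2 units over all genes) than in organoids (0.0952 to 0.136). The marker check followed the labels, apart from a high hepatocyte signal in gallbladder tissue. The epithelial markers Epcam and Cdh1 read 12.34 to 13.27 in all 8 organoid arrays, the hepatocyte marker Alb read 14.34 and 14.35 in liver tissue, and the smooth muscle marker Acta2 read 14.26 and 14.01 in gallbladder tissue and 12.96 and 12.56 in intestine tissue. Alb also read 14.30 and 14.30 in gallbladder tissue, whose 2 arrays stood farthest apart of all groups. Of the macrophage and leukocyte markers, Ptprc read 6.21 to 6.68 in organoids and 8.12 to 10.22 in tissue, and the Kupffer cell marker Clec4f read 11.28 and 11.01 in liver tissue and 7.27 and 8.40 in gallbladder tissue.

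The junction and surface markers were low in every organoid array and high in every tissue array. Cdh5, which forms the adherens junctions of endothelium, read 9.74 and 10.45 in gallbladder tissue, 10.89 and 10.85 in liver tissue and 8.66 and 8.80 in intestine tissue, against 6.35 to 6.82 (median 6.47) on the 8 organoid arrays. Its tissues ordered as liver, gallbladder, intestine with no overlap of arrays. Pecam1, an adhesion molecule that platelets and leukocytes also carry, read 8.42 and 9.26 in gallbladder, 9.12 and 9.24 in liver and 8.34 and 8.70 in intestine, against 6.16 to 6.48 (median 6.31) in organoids. Here the neighbouring tissues in the order overlapped.

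Eng, endoglin, a co-receptor for ligands of the TGF-beta and BMP family, read 10.26 and 11.10 in gallbladder tissue, 10.98 and 11.46 in liver and 8.67 and 9.23 in intestine, against 6.53 to 7.09 (median 6.90) in organoids. Liver and gallbladder overlapped and intestine lay below both. In RefSeq the Eng locus overlaps the protein-coding gene Fpgs. Emcn, endomucin, a mucin of capillary and venous endothelium, had another order. It read 10.09 and 10.26 in gallbladder, 8.63 and 9.20 in liver and 8.33 and 9.48 in intestine, against 5.12 to 5.47 (median 5.31) in organoids, so that gallbladder lay above both other tissues and those overlapped each other.

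Among the growth factor receptors, Kdr (VEGF receptor 2), the main signalling receptor of Vegfa, read 8.29 and 9.34 in gallbladder tissue, 10.23 and 10.15 in liver and 7.86 and 8.12 in intestine, against 5.98 to 6.50 (median 6.32) in organoids. Tek read 7.99 and 9.09 in gallbladder, 9.11 and 9.83 in liver and 7.10 and 7.76 in intestine, against 6.16 to 6.80 (median 6.44) in organoids. For both receptors the order was liver, gallbladder, intestine without overlap of arrays.

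Flt1 (VEGF receptor 1), which binds Vegfa, Vegfb and placental growth factor and is also made as a soluble decoy, broke the pattern. Its highest values were those of liver organoids, 10.45 and 10.33. Gallbladder tissue read 8.59 and 9.03, liver tissue 8.88 and 8.76 and intestine tissue 7.94 and 8.12. Gallbladder organoids read 7.16 and 7.17, differentiated gallbladder organoids 6.94 and 6.99 and intestine organoids 6.73 and 6.46. Liver and gallbladder tissue overlapped, and the other neighbours in the order did not.

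Of the 10 markers, Clec4g and Stab2 spanned the widest ranges over the 6 tissue arrays. Clec4g, a lectin of liver sinusoidal endothelium, read 12.10 and 12.30 in liver tissue, 7.10 and 9.78 in gallbladder tissue and 6.28 and 6.52 in intestine tissue, against 6.26 to 6.65 (median 6.52) in organoids. Stab2, the hyaluronan scavenger receptor of sinusoids, read 10.54 and 10.43 in liver, 7.50 and 9.48 in gallbladder and 6.91 and 6.92 in intestine, against 6.66 to 6.96 (median 6.86) in organoids. Intestine tissue lay within the range of the organoids for both genes, while the gallbladder arrays stood between and far from each other.

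Lyve1 was the other exception among organoids. It read 10.66 and 10.01 in gallbladder tissue, 10.01 and 10.36 in liver tissue and 9.20 and 9.25 in intestine tissue. Intestine organoids read 9.36 and 9.51, above both intestine tissue arrays, whereas gallbladder organoids read 6.76 and 7.25, differentiated gallbladder organoids 7.22 and 6.94 and liver organoids 6.99 and 7.12. Apart from Flt1 and Lyve1, the 8 other markers varied over the 8 organoid arrays by only 0.299 to 0.639 log2 units. For 6 of the 10, Pecam1, Cdh5, Emcn, Eng, Kdr and Tek, every tissue array lay above every organoid array. The share of all genes that separated in this way was not counted, so this number has no background beside it.

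**Figure D1:**
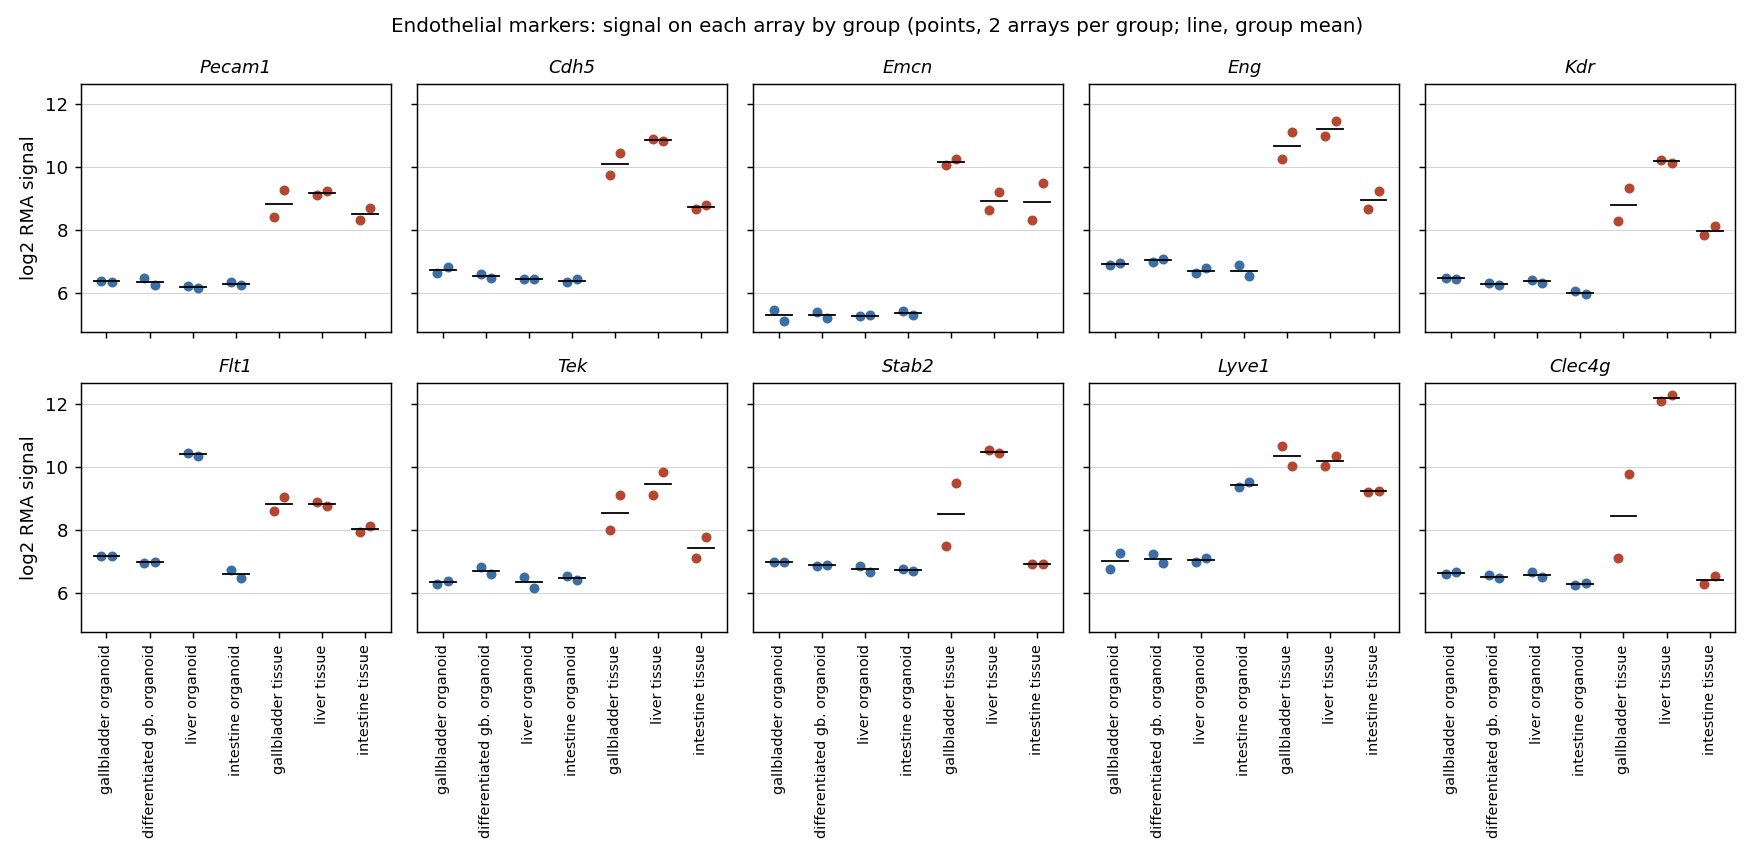
Log2 signal of each of the 10 markers (panels) on every array by group, organoids in blue and tissues in red, with a line at the mean of the 2 arrays. Liver organoids stand out for Flt1 (10.45 and 10.33) and intestine organoids for Lyve1 (9.36 and 9.51), and the 2 gallbladder tissue arrays lie far apart for Stab2 and Clec4g.

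Each tissue was compared with its own organoids to ask which vessel signals the cultures lack. Differences are in log2 units with their SE, tested with limma over all 14 arrays and called at an adjusted p below 0.05. Each gene has a variance shared by all 7 groups, so its SE and interval also carry the spread of groups not compared. In gallbladder tissue 10 of 10 markers were higher than in gallbladder organoids, where 15.2% of all genes tested were higher. The median difference of the markers was 2.40, beside -0.17 for all genes. Emcn was higher by 4.88 ± 0.32 (29.5-fold, adjusted p = 1.96e-06), Eng by 3.74 ± 0.28 (13.4-fold) and Cdh5 by 3.36 ± 0.19 (10.3-fold). The smallest differences were those of Stab2 at 1.53 ± 0.46 (adjusted p = 0.0194), Flt1 at 1.64 ± 0.15 and Clec4g at 1.82 ± 0.61 (adjusted p = 0.0328). Without gallbladder organoid replicate 1 or 2 the calls of Stab2 (adjusted p 0.0765 and 0.0777) and Clec4g (0.114 and 0.106) were lost, and so they were in a fit to the 4 arrays compared (0.158 and 0.197). All 10 calls were kept without gallbladder tissue replicate 1 or 2, but Stab2 then differed by 2.52 or 0.53 and Clec4g by 3.16 or 0.48. Clec4g was also lost when its 2 probe sets were averaged (adjusted p = 0.0501), as the other one read 5.32 to 5.76 on all arrays. In these bulk samples, fewer endothelial cells and less RNA per cell cannot be told apart.

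Liver tissue was higher than liver organoids in 9 of the 10 markers and lower in 1, where 18.2% of all genes were higher and 26.7% lower. The median difference was 3.68, beside -0.0046 for all genes. Clec4g was higher by 5.63 ± 0.61 (49.4-fold, adjusted p = 3.66e-05), Eng by 4.52 ± 0.28 (22.9-fold), Cdh5 by 4.42 ± 0.19 (21.4-fold) and Kdr by 3.81 ± 0.26 (14.1-fold). Stab2 was higher by 3.72 ± 0.46 and Lyve1 by 3.13 ± 0.23. The marker that was lower in the tissue was Flt1, with a difference of -1.57 ± 0.15 (2.97-fold, adjusted p = 1.51e-05). With the mean of its probe sets Clec4g was higher by 2.88. The liver calls were kept without any 1 of the 14 arrays.

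Intestine tissue was higher than intestine organoids in 6 of the 10 markers, where 15.6% of all genes were higher. The median difference was 1.70, beside 0.02 for all genes. Emcn was higher by 3.53 ± 0.32 (11.6-fold, adjusted p = 2.25e-05), Cdh5 by 2.33 ± 0.19 (5.03-fold), Eng by 2.24 ± 0.28 and Pecam1 by 2.21 ± 0.23. The receptors Kdr and Flt1 were higher by 1.97 ± 0.26 and 1.43 ± 0.15. Tek differed by 0.97 ± 0.35 (adjusted p = 0.0568) and was called under several other settings, for example with arrays centred on their medians (adjusted p = 0.0401). Stab2 differed by 0.19 (95% interval -0.82 to 1.21), Clec4g by 0.12 (-1.25 to 1.49) and Lyve1 by -0.21 (-0.71 to 0.30). The signs of the last 2 turned with quantile normalisation, where Lyve1 differed by 0.02 and Clec4g by -0.05. The Stab2 and Clec4g intervals also carry the gaps between the gallbladder tissue arrays (1.98 and 2.68). The arrays of intestine tissue and of intestine organoids lay 0.01 and 0.04 apart for Stab2 and 0.24 and 0.04 for Clec4g.

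**Figure D2:**
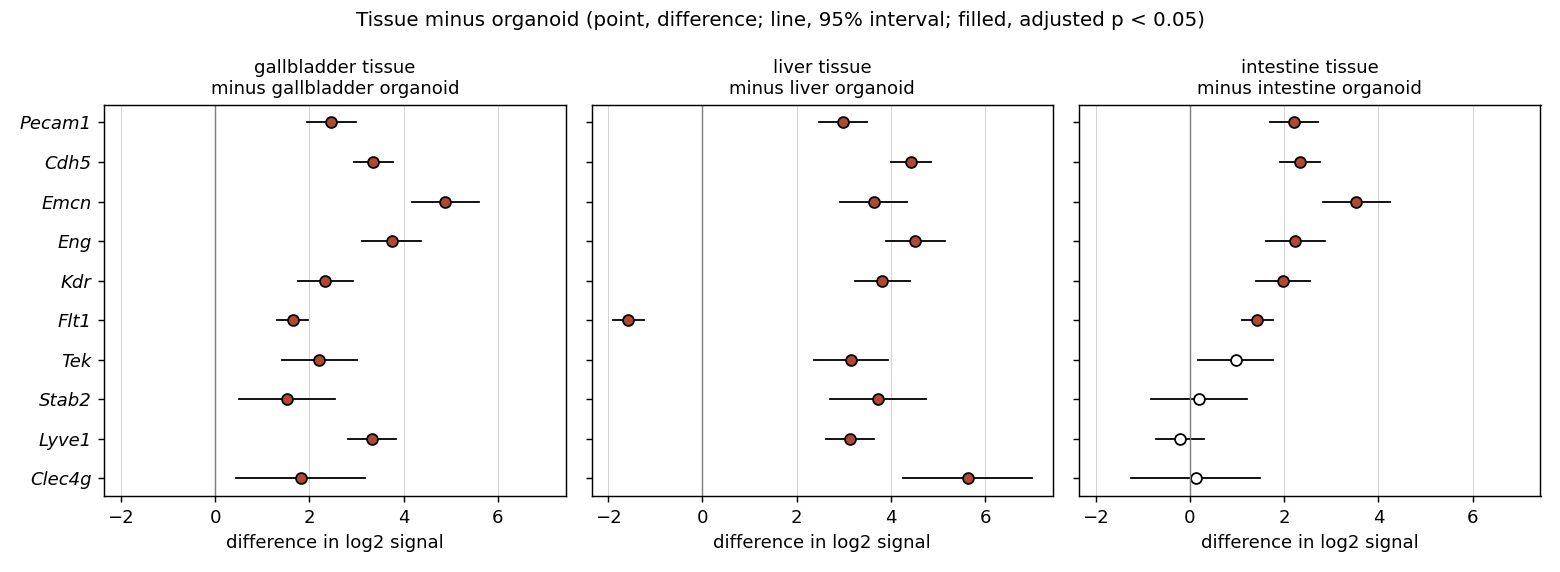
Difference in log2 signal, tissue minus organoid of the same organ, for each marker, with its 95% interval; filled points have an adjusted p below 0.05. In the liver panel Flt1 is the point left of 0 (-1.57), and in the intestine panel Tek, Stab2, Lyve1 and Clec4g are open.

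Markers of other cell types of the tissues were counted alongside. In gallbladder tissue 9 of 9 smooth muscle and pericyte markers, 7 of 7 fibroblast markers, 7 of 11 macrophage and Kupffer cell markers and 10 of 10 hepatocyte markers were higher than in the organoids, while 2 of 11 macrophage and 2 of 7 epithelial markers were lower. Of all genes, 15.2% were higher and 32.7% lower there, so the lower counts did not exceed the share of all genes. In liver tissue the counts of higher markers, in the same order of lists, were 6 of 9, 7 of 7, 10 of 11 and 10 of 10. There 7 of 7 epithelial markers were lower, by a median difference of -4.79. Of all genes, 18.2% were higher and 26.7% lower in liver tissue. In intestine tissue the counts of higher markers were 9 of 9, 7 of 7, 7 of 11 and 2 of 10. There 2 hepatocyte markers (Ttr, -2.20, and Hal, -1.11) and 1 epithelial marker were lower, and 2 epithelial markers were higher. Of all genes, 15.6% were higher and 20.2% lower in intestine tissue, so the hepatocyte counts lay near those shares. The largest difference in gallbladder tissue was that of Serpina1c (8.71) in the hepatocyte list, Dcn (7.23) in the fibroblast list and Acta2 (6.59) in the smooth muscle list. Their part in the differences of the endothelial markers was not tested.

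Whether the tissue excess over organoids differed between organs was tested as an interaction. Between liver and gallbladder it was larger in liver for 4 markers and smaller for 2 (39.8% of all genes passed in either direction; median centring moved the median of all genes by 0.12). Between liver and intestine it was larger in liver for 7 and smaller for 1 (35.2% of all genes). Between gallbladder and intestine it was larger in gallbladder for 4 (36.6% of all genes). The shares of markers stood near the background for the last of these. Those markers were Cdh5, Emcn, Eng and Lyve1, and their number ranged from 2 to 8 when 1 array was left out, with 8 without gallbladder tissue replicate 1 and 2 without gallbladder organoid replicate 1 or either intestine organoid array. The comparisons share groups, so they are not independent of each other.

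The tissues were then compared with each other to see which vessel signals are shared by the organs. Liver tissue was higher than intestine tissue in 9 of 10 markers (18.7% of all genes were higher), by a median of 2.09. Clec4g led with 5.79 ± 0.61 (55.5-fold), followed by Stab2 with 3.57 ± 0.46 (11.9-fold), Eng with 2.27, Kdr with 2.20, Cdh5 with 2.14 and Tek with 2.04. Lyve1 (0.96), Flt1 (0.79) and Pecam1 (0.66, adjusted p = 0.0450) differed less. Pecam1 lost its call in 11 of the 14 fits that left out 1 array, and Lyve1 without liver tissue replicate 2 (0.79, adjusted p = 0.0530) and with array weights (0.0846). With the mean of its probe sets Clec4g differed by 3.03. Emcn differed by 0.01 (95% interval -0.70 to 0.72). Alongside, 9 of 10 hepatocyte markers (median difference 6.04) and 10 of 11 macrophage and Kupffer cell markers (1.34) were higher in liver. Of the smooth muscle markers 8 of 9 (-2.22) and of the epithelial markers 6 of 7 (-4.09) were lower, where 18.8% of all genes were lower, and of 7 fibroblast markers 2 were higher and 3 lower. Their part in the differences between these tissues was not tested.

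Gallbladder tissue was higher than intestine tissue in 9 of 10 markers (20.7% of all genes were higher), by a median of 1.19. The differences ran from 0.78 for Flt1 and 0.82 for Kdr to 1.73 for Eng and 2.03 for Clec4g, and Pecam1 differed by 0.32 (adjusted p = 0.280). The count was 5 without intestine tissue replicate 1 and 10 without gallbladder tissue replicate 1. Without gallbladder tissue replicate 1 or 2, Clec4g differed by 3.37 or 0.69, Stab2 by 2.56 or 0.58, Kdr by 1.35 or 0.30 and Tek by 1.66 or 0.56; without replicate 2, Kdr and Tek were not called. Emcn differed by 0.69 or 1.84 without intestine tissue replicate 1 or 2. In a fit to the 4 arrays compared the count was 2, Cdh5 and Eng (16.2% of all genes called). Alongside, 8 of 10 hepatocyte (median difference 5.14), 7 of 9 smooth muscle (1.37), 7 of 7 fibroblast (1.32) and 2 of 11 macrophage markers were higher in gallbladder, and 4 of 7 epithelial markers were lower, where 24.3% of all genes were lower. The hepatocyte, smooth muscle and macrophage lists each held 1 marker that was lower, and the epithelial list 1 that was higher. Their part in the marker differences was not tested.

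Liver tissue was higher than gallbladder tissue in 4 markers (27.4% of all genes were higher) and lower in 1 (20.7% were lower). Clec4g was higher by 3.76 ± 0.61 (13.6-fold, adjusted p = 0.000758), Stab2 by 2.00 ± 0.46, Kdr by 1.37 ± 0.26 and Cdh5 by 0.77 ± 0.19. Emcn was the marker that was lower in liver, with a difference of -1.26 ± 0.32 (2.39-fold, adjusted p = 0.00867). Flt1 differed by 0.01 (95% interval -0.33 to 0.35), Lyve1 by -0.15, Pecam1 by 0.34, Eng by 0.54 and Tek by 0.93 (adjusted p = 0.0523). Without gallbladder tissue replicate 2 the count of called markers was 8 in place of 5, since Pecam1, Eng and Tek passed, and in a fit to the 4 arrays compared it was 2, Clec4g and Emcn (19.2% of all genes called). Without liver tissue replicate 1 the call of Emcn was lost (-0.97, adjusted p = 0.0662). Without gallbladder tissue replicate 1 or 2, Clec4g differed by 2.42 or 5.10, Stab2 by 1.00 or 2.99, Kdr by 0.84 or 1.90 and Cdh5 by 0.42 or 1.13, each still called, and with the mean of its probe sets Clec4g differed by 2.04. Alongside, 10 of 11 macrophage and Kupffer cell (median difference 1.71) and 4 of 10 hepatocyte markers were higher in liver, and 7 of 9 smooth muscle (-4.65), 7 of 7 fibroblast (-1.58) and 5 of 7 epithelial markers (-2.26) were lower, with 1 smooth muscle marker higher. Their part in the marker differences was not tested. Centring arrays on their medians moved the share of higher genes among all those called from 57.0% to 68.0% and the median of all genes by 0.12.

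The 2 gallbladder tissue arrays were far apart in these genes. Replicate 2 read higher in 9 of 10 markers, by a median of 0.85, beside -0.02 for all genes. Clec4g was higher by 2.68, Stab2 by 1.98, Tek by 1.10 and Kdr by 1.06, while Lyve1 differed by -0.65. In liver tissue replicate 2 was higher in 6 of 10 markers, by a median of 0.16, and in intestine tissue in 10 of 10, by 0.25. Lists of liver cell markers and of other vessel markers both had higher means on gallbladder replicate 2. The mean of 20 other pan-endothelial markers was 8.16 on replicate 1 and 8.57 on replicate 2. That of 6 VEGF and angiopoietin receptors and co-receptors was 9.06 and 9.71, and that of 4 lymphatic markers 8.93 and 9.64. Alb, in the hepatocyte list, read nearly the same on both arrays. The mean of 10 hepatocyte markers was 12.66 on replicate 1 and 13.74 on replicate 2, that of 11 macrophage and Kupffer cell markers 7.56 and 8.27, and that of 12 other sinusoid markers 7.85 and 8.85. Vsig4 and Cd5l, both Kupffer cell genes, read 6.24 and 8.64 and 5.51 and 7.55. The means of smooth muscle markers (11.39 and 11.17), fibroblast markers (10.71 and 10.53) and epithelial markers (12.09 and 11.78) were lower on replicate 2. The part of liver cells in the gallbladder values of Stab2 and Clec4g was not tested.

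**Figure D3:**
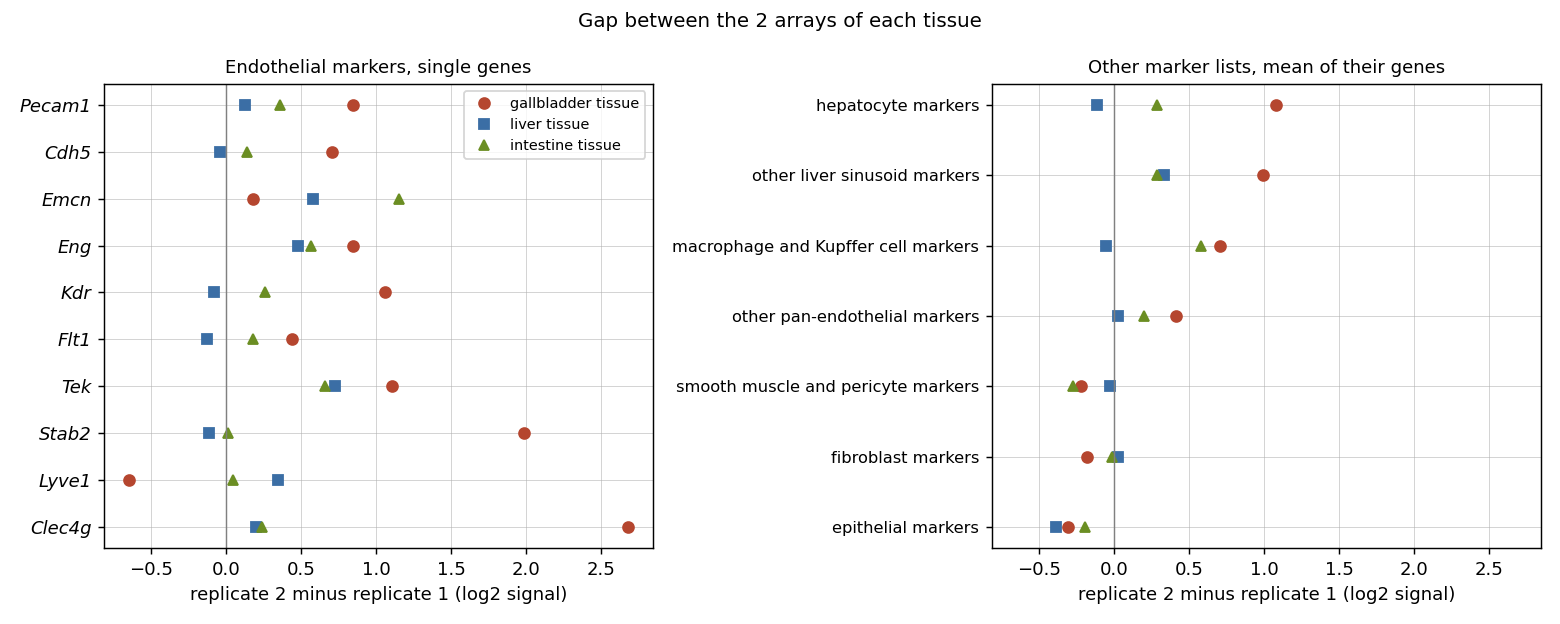
Replicate 2 minus replicate 1 in log2 signal for each marker (left) and for the means of 7 other marker lists (right), in the 3 tissues. In gallbladder tissue Clec4g (2.68) and Stab2 (1.98) lie farthest to the right in the left panel, followed by Tek (1.10) and Kdr (1.06). In the right panel the mean of the hepatocyte markers (1.08) does, followed by that of the other liver sinusoid markers (0.995).

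Between organoids of different organs, Flt1 and Lyve1 were the markers called. Flt1 was the marker called between liver and gallbladder organoids (1 of 10, where 12.7% of all genes were called), and it was higher in liver organoids than in intestine organoids by 3.79 ± 0.15 (13.9-fold, adjusted p = 6.00e-08). Lyve1 was lower in liver organoids than in intestine organoids, with a difference of -2.38 ± 0.23 (5.20-fold, adjusted p = 2.63e-05), which made 2 of 10 called (26.5% of all genes). It was also lower in gallbladder organoids than in intestine organoids, with a difference of -2.42 ± 0.23 (5.36-fold). Flt1 was higher there by 0.57 ± 0.15 (1.48-fold, adjusted p = 0.0149), again 2 of 10 called (35.6% of all genes). The gallbladder call of Flt1 was lost without gallbladder organoid replicate 1 or 2 or intestine organoid replicate 2 (adjusted p 0.0666, 0.0748 and 0.126). In fits to the 4 arrays compared, the counts were 2 for liver against gallbladder, 4 for liver against intestine and 6 for gallbladder against intestine organoids, where 35.6%, 39.4% and 58.7% of all genes were called, shares above or near those of the markers. For the last comparison the count was 5 without gallbladder tissue replicate 1 or 2, and 1 in the 3 fits that lost Flt1.

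Withdrawal of R-spondin 1, noggin and nicotinamide from gallbladder organoids was followed by a call in 0 of 10 markers by limma, and 0 had an unadjusted p below 0.05 (4.73% of all genes were called). The largest difference was that of Tek, 0.37 (95% interval -0.41 to 1.16, adjusted p = 0.699). Flt1 differed by -0.20 (-0.53 to 0.14). In a fit to these 4 arrays alone Tek was called (adjusted p = 0.0246), with 26.8% of all genes. With the replicate number as a block its adjusted p was 0.671.

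The partners of these receptors were read from a list of 8 VEGF and angiopoietin ligands. Vegfa, the main endothelial growth factor, read 10.34 to 11.49 in organoids and 10.75 to 12.21 in tissue, and differed by 0.54, 0.07 and 0.64 between tissue and organoids of gallbladder, liver and intestine with no call. Pgf, placental growth factor, a ligand of Flt1, was highest in liver organoids, which read 7.96 and 8.64. Differentiated gallbladder organoids read 7.65 and 7.70, gallbladder organoids 6.43 and 6.43 and intestine organoids 5.88 and 6.14. Pgf was lower in liver tissue than in liver organoids, with a difference of -2.13. After withdrawal 2 of the 8 ligands were called (4.73% of all genes), with differences of 1.24 for Pgf and 1.25 for Angpt1. Angpt2, the ligand of Tek that loosens vessels, read 9.54 and 9.41 in intestine organoids and 6.05 to 6.996 on the 12 other arrays. It was lower in intestine tissue than in intestine organoids, with a difference of -2.76.

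Of the other ligands, Angpt1, which stabilises vessels through Tek, was higher in gallbladder tissue than in its organoids by 2.08, and read 6.99 and 7.06 there. Vegfc, a lymphatic growth factor, was higher in gallbladder (0.89) and liver tissue (1.01). Vegfb was lower in intestine tissue than in its organoids (-0.94) and higher in gallbladder tissue (0.56). Vegfd was higher in gallbladder tissue (0.49) and in intestine tissue (0.93). Angptl4 ranged from 8.48 to 11.84 in tissue with gaps of over 1 log2 unit between replicates, and was not called in any comparison.

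**Figure D4:**
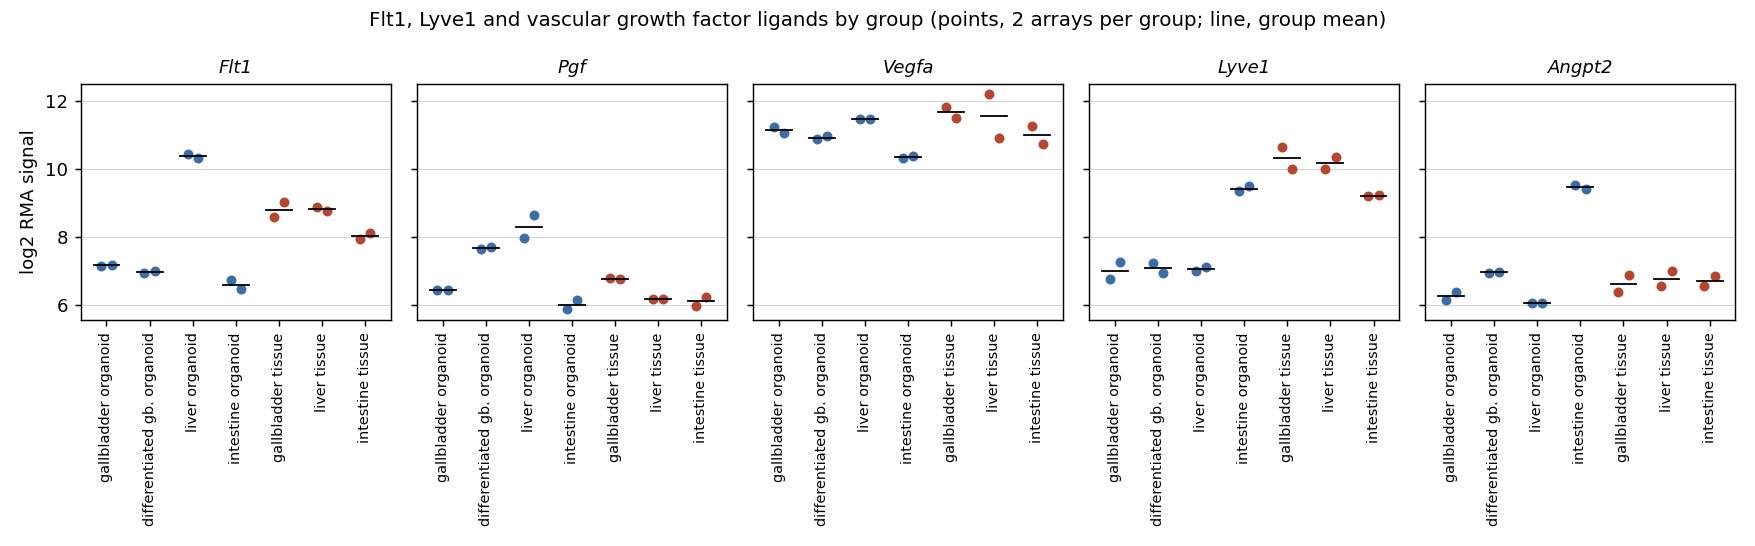
Log2 signal of Flt1, Pgf, Vegfa, Lyve1 and Angpt2 on every array by group, with a line at the mean of the 2 arrays. Liver organoids are highest for Flt1 and Pgf, and intestine organoids hold the high values of Angpt2 (9.54 and 9.41) and the only high organoid values of Lyve1.

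Of 6 further receptors and co-receptors, 5 were higher in gallbladder tissue, 6 in liver tissue and 4 in intestine tissue than in the organoids (15.2%, 18.2% and 15.6% of all genes). Ptprb, an endothelial phosphatase that restrains Tek, was higher by 2.85, 3.98 and 1.72 in the 3 organs. Tie1, the sister receptor of Tek, was higher by 1.46, 1.97 and 0.89. The semaphorin and VEGF co-receptors Nrp1 and Nrp2 were higher in gallbladder (2.15 and 1.38) and liver (2.50 and 0.81), and Plxnd1 in the same organs (0.94 and 1.33). In intestine Nrp2 was higher by 1.22, and Nrp1 (0.82) and Plxnd1 (0.52) did not pass. Flt4, the receptor of Vegfc, read 8.55 and 8.62 in gallbladder organoids and 6.61 and 6.50 in intestine organoids, a difference of 2.03. Gallbladder tissue (7.83 and 8.54) differed from its organoids by -0.40 for Flt4 with no call.

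Of 20 other endothelial markers, 16 were higher and 1 lower in gallbladder tissue, 18 higher and 1 lower in liver tissue and 12 higher in intestine tissue than in organoids. Of all genes, 15.2% were higher and 32.7% lower in gallbladder, 18.2% and 26.7% in liver, and 15.6% higher in intestine. The stem cell and vessel antigen Cd34 was higher by 4.55 in gallbladder, 2.12 in liver and 3.12 in intestine, and the lectin Cd93 by 2.56, 3.17 and 1.68. Cd34 was lower in liver than in gallbladder tissue (-2.61), as Emcn was. S1pr1, the receptor of sphingosine-1-phosphate, was higher in liver tissue by 3.87, and Plvap, a protein of the diaphragms of capillary pores, in liver (2.78) and intestine (2.46). The lower gene, named after its value was seen, was Sox7 in gallbladder (-1.36) and Ecscr in liver (-1.07), and Ecscr read 9.39 to 9.74 in gallbladder and liver organoids.

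Of 12 other sinusoid markers, 9 were higher in gallbladder tissue, 10 in liver tissue and 7 in intestine tissue than in the organoids. Of all genes, 15.2%, 18.2% and 15.6% were higher. In liver the largest differences were those of the nuclease Dnase1l3 (5.15), the receptor Gpr182 (4.78) and Ehd3 (4.67). Mrc1, the mannose receptor, differed by 2.44 in gallbladder and 4.17 in liver, and macrophages also carry it. Between liver and gallbladder tissue 8 of the 12 were higher in liver (27.4% of all genes), led by Dnase1l3 (2.99), Gpr182 (2.88) and Ehd3 (2.53). Between liver and intestine tissue 9 were higher in liver (18.7% of all genes). On the gallbladder arrays Dnase1l3 read 6.57 and 9.63 and Ehd3 8.42 and 9.99, the same side of the replicate gap as Stab2 and Clec4g. Stab1, the sister gene of Stab2, read 9.18 and 9.84 in gallbladder, 9.68 and 9.73 in liver and 8.75 and 8.53 in intestine.

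Of the lymphatic markers that share Lyve1's vessels, 4 of 5 were measured. Mmrn1 read 9.50 and 9.45 in gallbladder tissue, 8.13 and 8.08 in intestine tissue and 6.14 and 5.59 in liver tissue, against 4.83 to 5.35 in organoids, 4.97 and 5.12 of them in intestine organoids. Reln was higher than in organoids by 2.88 in gallbladder, 3.40 in liver and 1.39 in intestine, and Pdpn by 1.30, 0.43 and 1.14. Prox1, a lymphatic factor that hepatocytes also express, read 10.81 and 10.75 in liver tissue, 7.47 and 9.87 in gallbladder tissue and 7.42 and 6.35 in intestine tissue. In intestine organoids, where Lyve1 was high, Prox1 read 7.005 and 6.66, Pdpn 7.18 and 7.28 and Reln 6.63 and 6.50, each below both gallbladder organoid arrays.

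The genes most like a marker were taken by Pearson's r, as a description, since the arrays share groups and the r follows the group means. For Cdh5 over 14 arrays they were Apoe (0.997), Serping1 (0.996), Rarres2 (0.995), Tie1 (0.994) and Stab1 (0.992). For Stab2 they were Asgr2 (0.999), Slc6a12 (0.998), Inhbc (0.998), Acsm1 (0.998) and Asgr1 (0.998). Asgr1 and Asgr2 form the asialoglycoprotein receptor of hepatocytes, and on the gallbladder tissue arrays Asgr1 read 7.42 and 10.60. For Flt1 over the 8 organoid arrays they were Scnn1g (0.996), Chst9 (0.996), Nrbp2 (0.996), Scnn1a (0.995) and Klf11 (0.995). Scnn1a, a subunit of the epithelial sodium channel, read 12.60 and 12.61 in liver organoids and 8.60 to 8.90 in the others. For Lyve1 over the organoid arrays, a choice made after its values were seen, they were Prkar2a (0.998), Trim38 (0.997), Rgn (0.995), Apoc3 (0.995) and Cdc25c (0.994).

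Within the list, Stab2 and Clec4g followed each other over the 14 arrays (r = 0.992), as did Cdh5 and Eng (0.994), whereas Flt1 reached 0.384 at most, with Kdr. Over the 6 tissue arrays Flt1 followed Eng (0.949) and Cdh5 (0.931), and Emcn had r of -0.09 to 0.50 with the others.

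The RefSeq table (GRCm38.p6) held a promoter for 7 of the 10, Emcn, Eng, Kdr, Flt1, Tek, Stab2 and Clec4g. Pecam1, Cdh5 and Lyve1 had no entry. Over the 250 bases before the start listed for each promoter, the letters AGGAAG on either strand were found in 5 of 7, beside 29.5% of 32851 promoters. These letters fit the core of sites bound by ETS factors. The listed start can lie inside the RefSeq span of the gene. The windows of Kdr and Flt1 lie within those spans, which end at 75979072 and 147726438. Those of Emcn, Tek, Stab2 and Clec4g overlap them in part. The letters AGATAA, which fit GATA factors, were found in 0 of 7, beside 9.99%. Below are the pair of sinusoid genes that followed each other and the VEGF receptors that parted in liver organoids, 5′ to 3′ on the strand of the gene, with matches of AGGAAG in either orientation in capitals. In Clec4g 2 of the 3 matches overlap, Stab2 has 1, Flt1 has 2 and Kdr has 0 in this window.
Stab2 (chr10:87007943-87008192, strand -): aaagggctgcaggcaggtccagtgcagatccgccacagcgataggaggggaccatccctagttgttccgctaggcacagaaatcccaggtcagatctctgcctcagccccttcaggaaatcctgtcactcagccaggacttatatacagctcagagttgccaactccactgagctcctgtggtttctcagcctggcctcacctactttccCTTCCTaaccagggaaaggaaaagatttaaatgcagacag
Clec4g (chr8:3720652-3720901, strand -): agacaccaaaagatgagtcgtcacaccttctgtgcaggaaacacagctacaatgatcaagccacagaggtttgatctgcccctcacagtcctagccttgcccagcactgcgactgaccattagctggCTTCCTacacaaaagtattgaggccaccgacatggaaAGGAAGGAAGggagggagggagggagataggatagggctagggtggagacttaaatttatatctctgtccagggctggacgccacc
Kdr (chr5:75978456-75978705, strand -): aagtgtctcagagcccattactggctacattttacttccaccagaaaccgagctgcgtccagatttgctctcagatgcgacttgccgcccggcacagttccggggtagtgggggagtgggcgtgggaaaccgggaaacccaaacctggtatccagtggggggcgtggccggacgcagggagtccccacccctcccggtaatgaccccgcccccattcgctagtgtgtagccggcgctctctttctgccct
Flt1 (chr5:147726012-147726261, strand -): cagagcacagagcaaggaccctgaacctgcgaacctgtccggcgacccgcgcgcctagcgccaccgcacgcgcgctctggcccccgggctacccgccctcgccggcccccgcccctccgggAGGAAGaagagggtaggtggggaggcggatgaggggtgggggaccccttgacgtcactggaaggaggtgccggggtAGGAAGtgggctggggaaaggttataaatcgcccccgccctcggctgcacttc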

How the data were processed

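Total RNA was measured on 14 Affymetrix mouse gene arrays, 2 for each of 7 groups taken from the labels. The deposited values are log2 signals that the authors summarised with RMA, per the submitters' processing notes; no version or genome build was given in the sources used here. RMA shrinks low signals together, so differences of dim genes can be understated. Of 35556 probe sets, 21789 had 1 gene symbol in GEO's platform annotation, 1621 had several and 12146 had none. For each of 19938 genes the probe set with the highest mean over the 14 arrays was kept, and no normalization was added.

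Group means were fitted with limma 3.58.1 in R 4.3.3 (lmFit, eBayes) over all 14 arrays, with 7 residual degrees of freedom and 9.91 after moderation. There were 10 comparisons of groups and 3 interactions. P-values were adjusted by Benjamini-Hochberg over all genes within a comparison and called below 0.05. A two-sided exact permutation test of 2 arrays against 2 cannot go below 0.333, so none is reported. The procedure was also run on simulated arrays, for liver against gallbladder organoids only. There all genes of a group had the same spread, and groups differed only by changes planted in liver organoids. Those settings are simpler than these data, so the run cannot show the error rate here.

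The 10 markers and the other lists were chosen with earlier results of these data known. By rule the text names the 10 markers, the genes of the VEGF and angiopoietin lists, a few defining markers and, of each other list, the 3 with the largest difference in a comparison. The lymphatic list lost Ccl21a, which had no probe set with a symbol of its own. Alternatives were quantile normalisation, median centring, leaving out the dimmest 40% of genes, the mean of a gene's probe sets, a fit to the compared arrays, array weights, a trended robust prior, a minimum difference of 1, the replicate block and leaving out each array. Same-numbered arrays deviated together weakly at most, which cannot show whether they shared animals or preparations.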

Additional observations from a re-analysis of the deposited data

Results flagged for a closer look

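Tissue minus organoid differences that differed between organs by an interaction test in limma are given here in log2 units, with SE and adjusted p. The comparisons share groups, and each interaction rests on 2 arrays in each of 4 groups.

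Against gallbladder, the tissue excess in liver was larger for Cdh5 by 1.06 (SE 0.265, adjusted p = 0.0105), Kdr by 1.47 (0.366, 0.0104), Stab2 by 2.20 (0.644, 0.0219) and Clec4g by 3.81 (0.866, 0.00680). It was smaller for Emcn, with an interaction of -1.25 (0.449, 0.0490), and for Flt1, with -3.22 (0.213, 5.43e-06). The Flt1 value is set by liver organoids, which read above liver tissue. Without gallbladder tissue replicate 1 or 2 these interactions were 2.47 or 5.15 for Clec4g, 1.20 or 3.19 for Stab2, 0.95 or 2.00 for Kdr and 0.71 or 1.42 for Cdh5, each still called, and with the mean of its probe sets Clec4g was 2.06. Emcn lost this call in 11 of the 14 fits that left out 1 array (kept without intestine tissue replicate 1 or 2 or liver tissue replicate 2), and Stab2 lost it without gallbladder organoid replicate 1 or 2, liver tissue replicate 1 or liver organoid replicate 2 (adjusted p 0.0541 to 0.0700).

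Against intestine, the excess in liver was larger for Cdh5 by 2.09 (adjusted p = 0.000189), Eng by 2.28 (0.00134), Kdr by 1.84 (0.00291), Tek by 2.17 (0.00662), Stab2 by 3.53 (0.00178), Lyve1 by 3.34 (3.22e-05) and Clec4g by 5.50 (0.000733; 2.81 with the mean of its probe sets). It was smaller for Flt1, with -3.01 (4.69e-06).

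Gallbladder exceeded intestine in Cdh5 by 1.03 (adjusted p = 0.0137), Emcn by 1.35 (0.0392), Eng by 1.51 (0.0149) and Lyve1 by 3.53 (5.37e-05). Both Lyve1 values include the intestine organoids, which read 9.36 and 9.51, and from which liver and gallbladder organoids differed by -2.38 and -2.42. Tissue differences enter too, with 0.96 for liver minus intestine tissue and 1.11 for gallbladder minus intestine tissue. Without gallbladder tissue replicate 1 or 2 Cdh5 was 1.38 or 0.67, and without intestine tissue replicate 1 or 2 Emcn was 0.77 or 1.93. The call of Emcn was lost in 11 of the 14 fits (kept without intestine tissue replicate 2 or liver tissue replicate 1 or 2), that of Eng without intestine organoid replicate 1 (0.0572), and that of Cdh5 without gallbladder organoid replicate 1 (0.0532) or intestine organoid replicate 2 (0.0501).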

How the results depend on the processing

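Of 1949 values of 85 marker differences under other settings, 1830 kept direction and side of the threshold, 88 lost the call, 21 gained it and 10 turned in sign. The cause was not tested. Most settings could not change a difference itself. These were leaving out an array of a group not compared or the dimmest genes, and the fit to the compared arrays. Array weights, the replicate block, the trended prior and the minimum difference also left it as it was. The mean of probe sets could change only that of Clec4g. The number that kept direction was therefore largely fixed in advance. In fits to the compared arrays the number of markers called was 2 for liver against gallbladder tissue and for gallbladder against intestine tissue, 1 after withdrawal, 2, 4 and 6 for liver against gallbladder, liver against intestine and gallbladder against intestine organoids, and 2 for the gallbladder against intestine interaction. In the same order, 19.2%, 16.2%, 26.8%, 35.6%, 39.4%, 58.7% and 28.9% of all genes were called. Array weights gave 2 for liver against gallbladder and 4 for gallbladder against intestine organoids, and a minimum difference of 1 gave 1 for the latter. Of all 19938 genes, array weights called 7399 and 12112 in these comparisons, and the minimum difference called 2694 in the latter. With 1 array left out, the counts ranged from 2 to 8 for the gallbladder against intestine interaction, 1 to 5 for gallbladder against intestine organoids, 5 to 10 for gallbladder against intestine tissue and 5 to 8 for liver against gallbladder tissue. A lone array was assumed to vary like the other groups.

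The signs that turned were all of uncalled differences. With quantile normalisation they were Lyve1 (0.0232) and Clec4g (-0.0473) between intestine tissue and organoids. Between liver and intestine tissue, Emcn ranged from -0.57 without intestine tissue replicate 1 to 0.585 without intestine tissue replicate 2, and was -0.28 without liver tissue replicate 2. Between liver and gallbladder tissue, Flt1 was -0.0537 and Lyve1 0.0231 without liver tissue replicate 1. There, Pecam1 ranged from -0.0842 to 0.762, Flt1 from -0.211 to 0.229 and Lyve1 from 0.174 to -0.473 without gallbladder tissue replicate 1 and replicate 2. Between gallbladder and intestine tissue, Pecam1 ranged from -0.101 without gallbladder tissue replicate 2 to 0.745 without replicate 1.

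Deviations of same-numbered arrays correlated weakly (-0.10 to 0.11), which cannot exclude shared animals or preparations. With the replicate block, Tek was called between intestine tissue and organoids (adjusted p = 0.0479) and between liver and gallbladder tissue (0.0444), and Emcn lost its liver against gallbladder interaction (0.0517). Crossing the numbers called 0 markers after withdrawal and 884 genes, an alternative chosen after seeing the data.

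Over all genes, calls fell from 943 to 427 after withdrawal, 2530 to 746, 5275 to 2479 and 7100 to 2694 between organoids (in the order above) with a minimum difference of 1, and rose to 5720, 7399, 8191 and 12112 with array weights; leaving out 1 array gave as few as 338 and 887 for the first and second of these. With that minimum, calls went from 9554 to 3234, 8952 to 4447 and 7129 to 2884 between tissue and organoids of gallbladder, liver and intestine, 9597 to 3658 and 7485 to 3565 for liver against gallbladder and intestine tissue, and 7929 to 4071, 7024 to 4527 and 7297 to 3470 for the interactions. For gallbladder against intestine tissue they went from 8973 to 3224 in a fit to the compared arrays.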

Other observations

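Of 11 Notch and TGF-beta family partners of endothelium, 3 were higher and 4 lower in gallbladder tissue than in its organoids, 3 and 3 in liver, and 5 and 2 in intestine. Of all genes, 15.2% were higher and 32.7% lower in gallbladder, 18.2% and 26.7% in liver and 15.6% and 20.2% in intestine, so the lower shares of the list lay near those of all genes. Id1 and Id3, targets of BMP signalling, were high in liver organoids. Id1 read 12.26 and 11.99 there against 10.92 and 10.60 in gallbladder organoids (difference 1.36, adjusted p = 0.0140 by limma), and Id3 read 10.35 and 9.94 against 7.79 and 7.61 (2.45, adjusted p = 0.00124). Bmp2, a BMP ligand that sinusoidal endothelium makes, was also higher in liver than in gallbladder organoids, by 2.53 (adjusted p = 3.88e-05).

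Hey1, a Notch target, read 9.27 and 9.06 in gallbladder organoids and 7.30 and 7.31 after withdrawal of R-spondin 1, noggin and nicotinamide, a difference of -1.86 (adjusted p = 0.000125). Dll4, a Notch ligand of vessel tips that intestinal epithelium also makes, read 8.96 and 8.93 in intestine organoids and 6.66 to 7.06 in the other organoids.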
